A study of Danio rerio with 1536 samples.

Results

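The cells described here were the pkd2l1+ cells of the Tg(isl1a:GFP) spinal cord, labelled by their markers as cerebrospinal-fluid-contacting neurons (CSF-cNs). They were 157 of the 622 isl1a:GFP wells that passed quality limits, 73 of 259 on plate 1 and 84 of 363 on plate 2, and of 1247 passing wells among the 1536 wells of the whole series. A well passed with 2000 to 9000 genes detected and at most 30% of its counts on spike-in RNA. The members were chosen by their measured pkd2l1 level (ENSDARG00000022503), which had to reach 500 counts per 1000000 counts on zebrafish genes (CPM). Members made up 28.2% and 23.1% of the passing wells of the 2 plates, which are shares of the sorted cells and not of the cord.

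The series examined excitatory spinal neurons of adult zebrafish by Smart-seq2, a full-length single-cell RNA sequencing method without molecular identifiers. The isl1a:GFP cells came from 7-week-old fish of either sex that carried a GFP transgene driven by isl1a regulatory sequence. For each plate, 6 to 10 spinal cords were pooled and dissociated with papain, and single cells positive for GFP and the nuclear dye DRAQ5 were sorted into 384 wells. The 2 plates are the replicates, and every group compared here was taken from both of them, so that all shared the transgene, the age and the sort. As the sort took whatever cells carried GFP, the other isl1a:GFP cells were 291 cholinergic cells with at least 200 CPM of slc18a3a, 62 serotonergic cells with at least 500 CPM of tph2, and 112 remaining cells. Cells of a second line, Tg(chx10:GFP), filled the other 2 plates, and none of their 625 passing wells reached the pkd2l1 threshold, the highest being 128 CPM.

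CSF-cNs are GABAergic neurons that line the central canal and extend an apical process with microvilli and a motile cilium into the cerebrospinal fluid. Through the polycystin channel Pkd2l1 they respond when the cord bends and when the composition of the fluid changes, and they inhibit spinal motor circuits. In zebrafish larvae the ventral cells express the urotensin-related peptides Urp1 and Urp2, which act on the posture of the body axis, whereas dorsal cells express somatostatin.

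Few cells lay near the threshold. The 2 members closest to it, both on plate 1, had 735 and 744 CPM of pkd2l1, and the next member had 3116 CPM, so that a limit of 2000 or of 3000 CPM left 155 members. Below it, the highest non-member had 74.4 CPM on plate 1, and the highest on plate 2 had 307 and 183 CPM. Both members nearest the limit lacked urp1 (0 CPM) and held under 11 CPM of urp2. The first of them carried 19230 CPM of gfap and 5296 CPM of a FABP7 copy (ENSDARG00000007697), genes of radial astroglia, and the second had the lowest depth of all members (98169 counts) and the highest mitochondrial share (11.1%). With them the summed gfap of the members of plate 1 was 202 CPM, and without them 15.9 CPM. Calls that were lost with a limit of 2000 CPM, which leaves out both cells, are named below.

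The members had a depth like that of cholinergic cells, but fewer genes were detected in them than in cholinergic cells. Their median was 414434 counts on plate 1 and 429429 on plate 2, against 425078 and 438004 in cholinergic cells. The median number of genes detected was 3357 and 3598 in the members, 5073 and 4205 in cholinergic cells, and 3388 and 3878 in serotonergic cells. With every cell thinned to 100000 counts, which left out 7 cells, 1 of them a member, the medians were 2888 and 3110 genes in the members, 4331 and 3668 in cholinergic cells and 3074 and 3376 in serotonergic cells. The GFP reporter had a median of 3177 and 1937 CPM in the members and 1773 and 2658 CPM in the other cells. Of the 20 glial, immune and blood genes tested (29 found), none was called higher (adjusted p under 0.05) in the members by edgeR (1 at an unadjusted p under 0.05, and 1 with DESeq2) and 1, the antigen presentation gene cd74b, was lower, a call lost without the plate block and with cells of at least 3000 genes. Over all genes tested, 2.69% were called higher and 2.35% lower, so these counts are near the background. The summed level of the list was 2040 and 1856 CPM in the members and 2400 and 3517 CPM in the others. The myelin gene mbpa made up much of it, at 989 and 1234 CPM against 1143 and 1167 CPM, and its part in other results was not tested. The complement genes c1qa and c1qc and the globin gene hbaa2 were at 0 CPM in the members on both plates. No member reached 500 CPM of tph2, and 2 reached 200 CPM of slc18a3a.

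The label was compared with urp1, urp2 and tal2, markers of the type that the rule did not use. Their values, like those of pkd2l1, are given here as a description with no test. All 3 also enter the gene tests and list counts below, where their calls are not used as support for the label. Over the members of plate 1 the lowest, median and highest level of pkd2l1 was 735, 12063 and 24442 CPM, and over those of plate 2 it was 3116, 12041 and 23818 CPM. For urp1 the same values were 0, 17082 and 83750.4 CPM on plate 1 and 936, 25248 and 67491 CPM on plate 2. For urp2 they were 3.39, 10814 and 135086 CPM and 635, 23641 and 199180 CPM. The lower end of the pkd2l1 range was set by the rule. Both peptide genes had higher medians on plate 2. The transcription factor gene tal2, which marks this lineage in the larval cord, had medians of 793 and 711 CPM and reached 2248 and 2550.3 CPM.

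Nearly every member carried both peptides. At 500 CPM or more, urp1 was found in 155 of 157 members (98.7%, exact 95% interval 95.5 to 99.8%), urp2 in 152 (96.8%, 92.7 to 99.0%) and tal2 in 124 (79.0%, 71.8 to 85.1%). On plate 1, urp1 reached it in 71 of 73 members, urp2 in 68 and tal2 in 61. On plate 2, urp1 and urp2 reached it in all 84 members and tal2 in 63. The intervals pool the cells of both plates as if independent, so they leave out the difference between plates. Among the 465 other isl1a:GFP cells, 0 reached that level of urp1 (exact 95% interval 0 to 0.790%), 1 reached it for urp2 and 4 for tal2, all on plate 2. In sums per plate, the other cells held 3.54 and 8.25 CPM of urp1 and 3.24 and 9.70 CPM of urp2, at about the same low level in cholinergic (3.22 and 10.3 CPM of urp2), serotonergic (3.03 and 11.4 CPM) and remaining cells (3.42 and 7.04 CPM). Together urp1 and urp2 took a median of 2.98% of all gene counts of a member on plate 1 and 5.52% on plate 2, and up to 16.9% and 23.95% in single cells. The somatostatin gene sst1.1, which marks the dorsal cells in larvae, had no count in any of the 157 members. With 0 of 157 at 100 CPM or more, the exact 95% interval for the share at that level was 0 to 2.32%. Both peptides reached 500 CPM in 152 members, and the 2 members nearest the threshold reached it for neither.

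**Figure D1:**
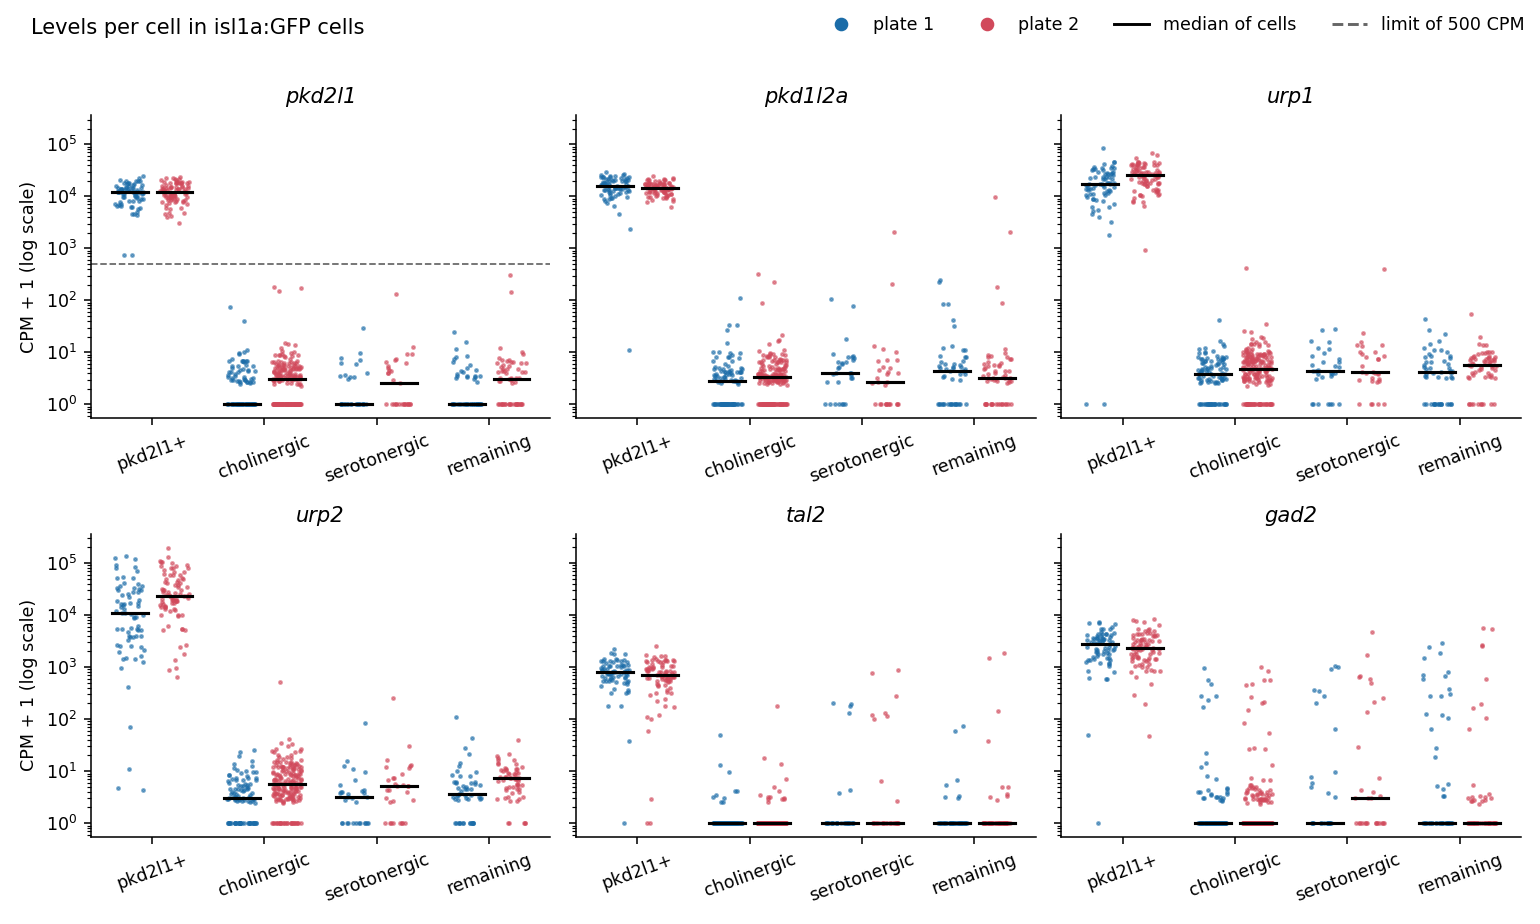
Level of 6 genes per cell (pkd2l1, pkd1l2a, urp1, urp2, tal2 and gad2) in CPM + 1 on a log axis, for pkd2l1+, cholinergic, serotonergic and remaining isl1a:GFP cells, 1 point a cell, with plates 1 and 2 in separate colours, black bars at the median of the cells and a dashed line at the limit of 500 CPM. For urp1 and urp2 most pkd2l1+ cells lie above the other cells, with medians between 10814 and 25248 CPM, and a few reach down among them, whereas the gap for pkd2l1 was set by the rule.

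To compare the members with the rest of the sort, counts were summed per plate and group and compared by the quasi-likelihood F test of edgeR, in which each plate was a block. Of 20315 genes tested, 547 (2.69%) were called higher in the pkd2l1+ cells and 478 (2.35%) lower, at a Benjamini-Hochberg adjusted p under 0.05 and an absolute log2 difference of at least 0.25, pkd2l1 itself not counted. Each called gene differed in the same direction on both plates, which is no separate check, as the calls rest on these plates. The median log2 difference over all genes tested was -0.24. With 2 plates the test had little power. On simulated sums of this comparison with 200 changed genes, it found 0% of 2-fold, 16.5% of 4-fold and 57.5% of 16-fold changes, so a gene that was not called is not shown to be alike. Of the genes called on these sums, 8.33% at 4-fold and 6.5% at 16-fold had not been changed. With members taken from 100 CPM of pkd2l1, which added 6 cells of plate 2 (3 cholinergic, 1 serotonergic and 2 remaining), 37 of the 100 genes named below as called lost their call. As plate was a block, every p-value rests on how far the group difference varied between these 2 pools. The estimate of that variation also borrowed from other genes. The gene lists below were chosen with earlier results of these data known.

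**Figure D2:**
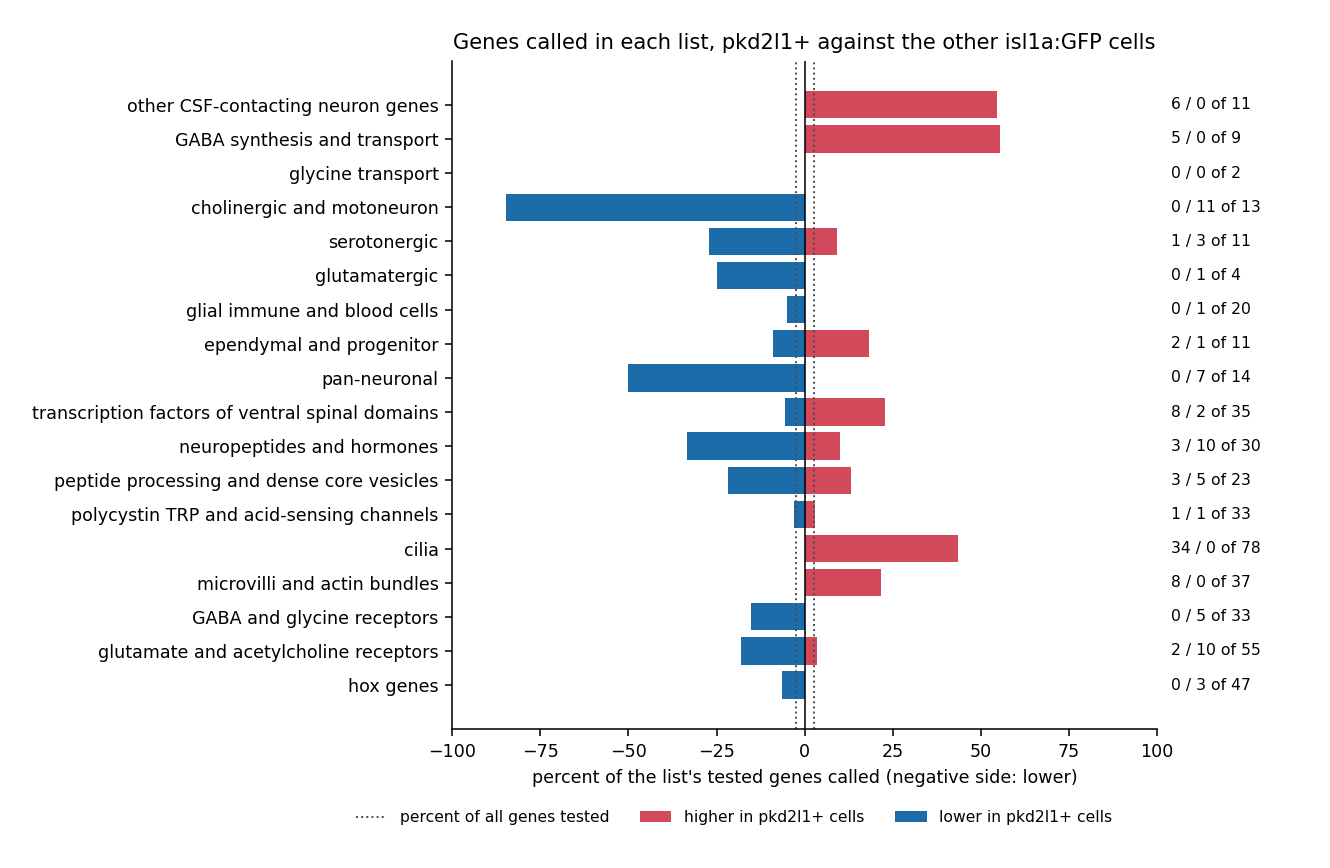
Share of the tested genes of each list that was called higher (positive side) or lower (negative side) in pkd2l1+ cells than in the other isl1a:GFP cells, in percent, with the counts at the right. Dotted lines mark the 2.69% and 2.35% of all 20315 genes tested; 34 of 78 cilia genes were called higher and 11 of 13 cholinergic and motoneuron genes lower.

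Of 11 further genes of CSF-cNs tested (15 found), 6 were called higher and none lower by edgeR (0 at an unadjusted p under 0.05, and 0 with DESeq2), with a median log2 difference of 3.38. They were pkd1l2a, myo3b, espn, tal1 and both SOX1 copies. The gene pkd1l2a encodes a large polycystin-1-like protein that accompanies Pkd2l1 in zebrafish CSF-cNs. Its level was 16024 and 14528 CPM in the pkd2l1+ sums of plates 1 and 2, and 5.10 and 50.1 CPM in the other cells (log2 difference 10.00 ± 1.14 (SE), adjusted p = 0.0139). Both pkd2l1+ sums lay far above both others, and single members ranged from 10.2 to 28935 CPM on plate 1 and from 6190.0 to 24159.6 CPM on plate 2. Among the 279 other cells of plate 2, the median of pkd1l2a was 2.27 CPM, and 3 cells held at least 500 CPM, up to 9820 CPM. Of the 33 polycystin, TRP and acid-sensing channel genes tested (43 found), pkd1l2a was the 1 called higher and asic1b, a proton-gated sodium channel, the 1 called lower (1.57 and 2.39 CPM against 43.8 and 35 CPM; log2 difference -4.22 ± 0.68 (SE), adjusted p = 0.0321), a call lost with RLE factors, the size factors of DESeq2. These counts are near the shares over all genes (2.69% higher and 2.35% lower) and are no result about the list, whose median of -0.26 was also close to that of all genes.

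Of 30 neuropeptide and hormone genes tested (59 found), 3 were called higher and 10 lower, with a median log2 difference of -6.55. Over all genes tested, 2.69% were called higher and 2.35% lower. The 3 were urp1 and urp2, which are markers of the label, and nppc, which encodes a C-type natriuretic peptide. Apart from these markers only nppc was called higher, so the higher calls are no result about the list. The level of nppc was 1206 and 1472 CPM in the members and 24 and 21.5 CPM in the others (log2 difference 5.99 ± 0.36 (SE), adjusted p = 0.00489). It was uneven among cells, with medians of 727 and 675 CPM and a range from 0 to 9329 CPM. Summed over both plates, pnoca, a nociceptin precursor gene, was 5104-fold lower (95% counting interval 916 to 201624) and pyyb, a peptide YY gene, was 2518-fold lower (95% counting interval 452 to 99469.5), each with 1 count in the pkd2l1+ cells. The PACAP gene adcyap1b had 0.229 and 0.398 CPM in the members and 358.3 and 477 CPM in the others (log2 difference -10.27 ± 0.45 (SE), adjusted p = 0.00347). The enkephalin gene penka had no count in the members and was at least 450.6-fold lower on plate 1 and at least 3.53-fold lower on plate 2, taking 3 counts per plate sum as the floor. Of the lower genes, pyyb and penka rested mainly on plate 1, where the remaining cells held 372 and 176 CPM against 0 and 1.32 CPM on plate 2, and the call of pyyb was lost without the plate block.

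Genes of the machinery that packs and cuts peptides were called in both directions. Of 23 genes tested, 3 were called higher and 5 lower by edgeR, with a median of 0.39. Over all genes tested, 2.69% were called higher and 2.35% lower. There were 9 higher and 6 lower at an unadjusted p under 0.05, and 9 and 6 with DESeq2. With RLE factors 1 was called higher and 4 lower, and without the plate block 1 and 5. The granule proteins scg3 (2219 and 3237 CPM against 764 and 658 CPM; log2 difference 2.03 ± 0.34 (SE), adjusted p = 0.0349) and vgf (821 and 1233 CPM against 169 and 214 CPM; log2 difference 2.52 ± 0.29 (SE), adjusted p = 0.0145) and the vesicle membrane protein ptprna (log2 difference 2.02, adjusted p = 0.0402) were higher. The prohormone convertase pcsk1 stood at 22.7 and 28.8 CPM in the members and 473 and 202 CPM in the others (log2 difference -3.48 ± 0.51 (SE), adjusted p = 0.0256). The second convertase, pcsk2, was nearly absent, with 1 count in the members, and was 936-fold lower (95% counting interval 168 to 36967). The granins chga (log2 difference -2.90, adjusted p = 0.0153) and chgb (-2.97, 0.0151) and the vesicle calcium sensor copy SYT9 (ENSDARG00000029239), with 2 counts in the members, were also lower. The calls of scg3 and ptprna were lost with RLE factors and without the plate block, and that of pcsk2 with RLE factors.

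The transmitter genes were those of GABAergic cells. Of 9 genes of GABA synthesis and transport tested, 5 were called higher and none lower by edgeR (1 at an unadjusted p under 0.05, and 0 with DESeq2), with a median of 4.29. The synthesis gene gad2 had 2982 and 2688 CPM in the members and 110.1 and 109 CPM in the others (log2 difference 4.80 ± 0.31 (SE), adjusted p = 0.00541). Both GAD1 copies, which encode the second glutamate decarboxylase, were higher too, ENSDARG00000027419 at 2001 and 1287 CPM against 90.2 and 81.1 CPM and ENSDARG00000093411 at 982 and 965 CPM against 5.99 and 3.0 CPM. The vesicular carrier slc32a1 had 205 and 261 CPM against 15.7 and 10.5 CPM (log2 difference 4.29 ± 0.42 (SE), adjusted p = 0.0103). For these 4 genes, no sum of the other cells came near a sum of the members. Among the other cells, gad2 was at 272 and 274 CPM in the remaining cells and at 30.5 and 23.9 CPM in cholinergic cells. Over both plates, 8 of 62 serotonergic, 13 of 112 remaining and 6 of 291 cholinergic cells held at least 500 CPM of gad2. Neither of the 2 glycine carrier genes was called in either direction by edgeR (1 at an unadjusted p under 0.05 and 1 with DESeq2, both higher), and slc6a5 had 77.1 and 68.2 CPM against 29.3 and 5.09 CPM (adjusted p = 0.119).

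Genes of the other transmitters were low. Of 13 cholinergic and motoneuron genes tested, 11 were called lower and none higher by edgeR (0 at an unadjusted p under 0.05, and 0 with DESeq2), with a median of -8.25. The acetylcholine synthesis gene CHAT had 4.29 and 4.22 CPM in the members and 1775 and 1103 CPM in the others (log2 difference -8.25 ± 0.43 (SE), adjusted p = 0.00424). The intermediate filament prph, a marker of neurons that project to the periphery, had 1.34 and 2.58 CPM against 1019 and 2355 CPM (log2 difference -9.59 ± 0.39 (SE), adjusted p = 0.00347). The motoneuron homeobox genes mnx1 (0 and 0.266 CPM against 90.4 and 280.3 CPM) and a copy of ISL2 (ENSDARG00000003971; 0 and 0.186 CPM against 61.8 and 166 CPM) were lower with adjusted p = 0.00733 and 0.00743. The related mnx2a was at 0 in both pkd2l1+ sums, at least 94.9-fold lower on plate 1 and at least 369.8-fold lower on plate 2, and mnx2b, with 3 counts in the members, was 788-fold lower (95% counting interval 269.6 to 3823). The choline carrier copy SLC5A7 (ENSDARG00000074860) was lower by the same test (log2 difference -8.35, adjusted p = 0.00743). The call of mnx2b was lost with RLE factors, and with members from 100 CPM of pkd2l1 1 of the 13 genes was called lower.

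Of 11 serotonergic genes tested, tph2, ddc and fev were called lower and a TPH1 copy higher. Neuronal tryptophan hydroxylase, tph2, had 2.98 and 1.41 CPM against 3575 and 1809 CPM, the decarboxylase ddc 18.4 and 15.7 CPM against 1254 and 993 CPM, and the transcription factor fev 0.0655 and 0.0797 CPM against 453 and 224 CPM, with adjusted p = 0.00347, 0.00463 and 0.00414. The 62 serotonergic cells, which were defined by tph2, held 8075 and 9172 CPM of ddc and 2916 and 2021 CPM of fev. The TPH1 copy ENSDARG00000036082, a second tryptophan hydroxylase, had 45.7 and 67.1 CPM in the members and 0.498 and 2.09 CPM in the others (log2 difference 5.85 ± 0.66 (SE), adjusted p = 0.0139). It was carried by a minority, with 9 of 73 and 16 of 84 members at 100 CPM or more. Of 4 glutamatergic carrier genes tested, 1 was lower, the vesicular carrier copy SLC17A6 (ENSDARG00000041150; 1.31 and 4.30 CPM against 123 and 72.3 CPM), a call lost with RLE factors.

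Of the transcription factors of the ventral cord, more were called higher than lower. Of 35 tested (41 found), 8 were called higher and 2 lower by edgeR, with a median of 1.41. At an unadjusted p under 0.05 there were 16 higher and 7 lower, and with DESeq2 16 and 6. Over all genes tested, 2.69% were called higher and 2.35% lower. The 8 included tal2, a marker of the label. The basic helix-loop-helix gene tal1, which acts with GATA factors in ventral GABAergic neurons, had 1102 and 1567 CPM in the members and 0.309 and 3.26 CPM in the others (log2 difference 10.34 ± 0.94 (SE), adjusted p = 0.00878). The forkhead gene foxa had 596 and 578 CPM against 0.417 and 4.01 CPM (log2 difference 8.83 ± 1.02 (SE), adjusted p = 0.0145), with medians per cell of 442 and 500.6 CPM. Its relative foxa2, a floor plate gene, had 253 and 249 CPM against 0.0538 and 11 CPM and was not called (log2 difference 7.70 ± 2.06 (SE), adjusted p = 0.12). The ventral homeobox gene nkx2.2a had 314 and 169 CPM against 11.6 and 11.78 CPM (log2 difference 4.41 ± 0.40 (SE), adjusted p = 0.00868) and was uneven among cells, with medians of 248 CPM on plate 1 and 3.28 CPM on plate 2. The GATA cofactor genes zfpm1 (173 and 85.0 CPM against 5.81 and 5.26 CPM) and zfpm2b (82.8 and 43.1 CPM against 1.16 and 0.113 CPM) were higher, with adjusted p = 0.00908 and 0.0158. Their relative zfpm2a, also in the list, was not called higher. The SOX1 copies ENSDARG00000008131 (log2 difference 3.38, adjusted p = 0.0185) and ENSDARG00000069866 (2.40, 0.0374) were called as well, whereas meis2a had 1.28 and 4.99 CPM against 135 and 111 CPM and was lower (log2 difference -5.45 ± 0.74 (SE), adjusted p = 0.0209). The call of zfpm2b was lost with a limit of 2000 CPM for members, and that of the SOX1 copy ENSDARG00000069866 with RLE factors.

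The GATA factors themselves were shared with a second cell group. The level of gata2a was 499 and 502 CPM in the members, 1526 and 1388 CPM in serotonergic cells and 0.227 and 0.474 CPM in cholinergic cells. For gata3 the levels were 393 and 132, 1544 and 912 and 0.136 and 0.0474 CPM in the same groups. Members and serotonergic cells both carried them, and cholinergic cells hardly any. Against all other cells neither was called (gata2a log2 difference 1.45 ± 0.31 (SE), adjusted p = 0.0688; gata3 log2 difference 0.66 ± 0.29 (SE), adjusted p = 0.296), and both were higher than in cholinergic cells (gata2a log2 difference 10.76, adjusted p = 0.0229; gata3 log2 difference 11.59, adjusted p = 0.0253). Against serotonergic cells the difference was -1.56 for gata2a and -2.22 for gata3, neither past the threshold (adjusted p = 0.603 and 0.489).

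The LIM homeobox gene isl1a, whose regulatory sequence drives the GFP of the sort, was lower in the members than in cholinergic cells. Its level was 75.3 and 73.9 CPM in the pkd2l1+ sums, 288 and 827 CPM in cholinergic cells, 28.8 and 27.6 CPM in serotonergic cells and 222 and 701 CPM in remaining cells. In these sums the members stood between serotonergic cells and both other groups on each plate. The difference from all other cells was not past the threshold (log2 difference -2.33 ± 0.47 (SE), adjusted p = 0.0573), and that from cholinergic cells was (log2 difference -2.65, adjusted p = 0.0317). Per cell the order was another one on plate 1, where the median was 60.4 CPM in the members and 48.9 CPM in remaining cells. On plate 2 these medians were 37.6 and 111 CPM.

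**Figure D3:**
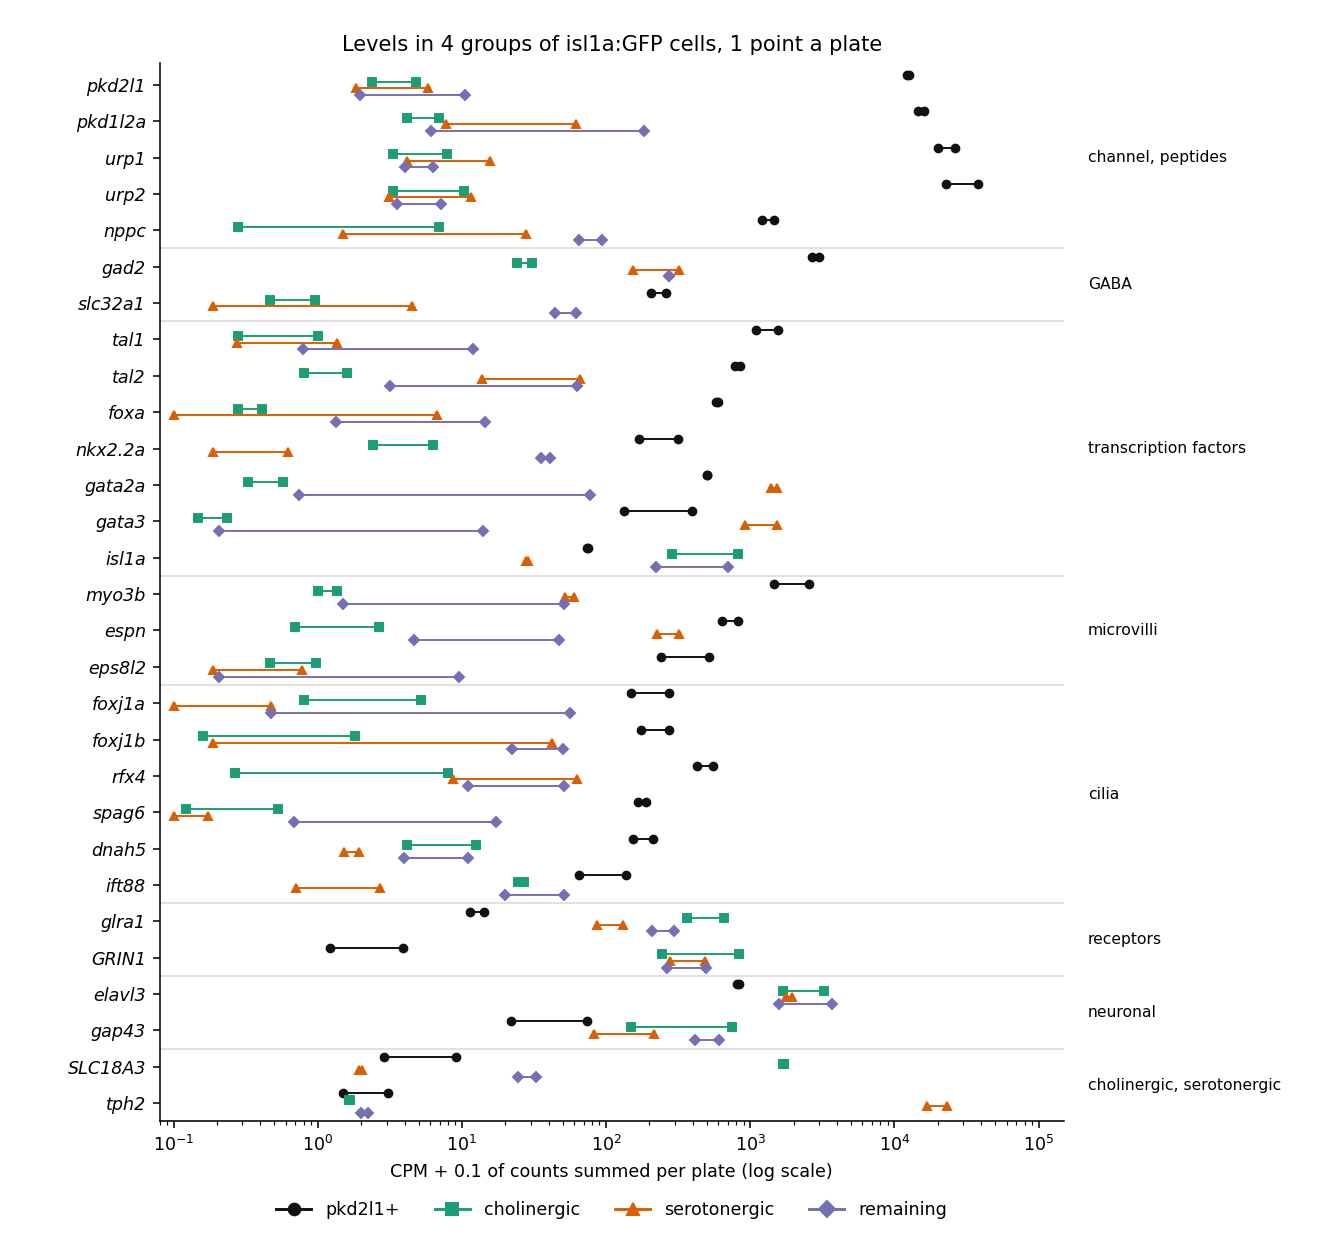
Level of genes of 8 groups in pkd2l1+, cholinergic, serotonergic and remaining isl1a:GFP cells, as CPM + 0.1 of counts summed per plate on a log axis, 1 point a plate with a line joining both plates. For the channel, peptide, GABA, microvillar and cilia genes shown, both pkd2l1+ points lie right of every other group, whereas for gata2a and gata3 they lie left of serotonergic cells and for glra1 and GRIN1 (ENSDARG00000025728) left of all others.

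Genes of the microvilli that CSF-cNs bear were raised in part. Of 37 genes tested (42 found), 8 were called higher and none lower by edgeR (6 at an unadjusted p under 0.05, and 5 with DESeq2), while the list's median of -0.17 was close to that of all genes. The stereociliary myosin gene myo3b had 2556 and 1467 CPM in the members and 8.91 and 18.2 CPM in the others (log2 difference 7.36 ± 0.61 (SE), adjusted p = 0.00757). Its cargo, the actin-bundling protein gene espn, had 821 and 635 CPM against 52.2 and 34.8 CPM (log2 difference 4.2 ± 0.32 (SE), adjusted p = 0.00733). Serotonergic cells also held espn, at 319 and 226 CPM, and the members did not differ from them past the threshold (log2 difference 1.45, adjusted p = 0.537). The actin-capping gene eps8l2 had 242 and 520.0 CPM against 0.256 and 2.68 CPM (log2 difference 8.74 ± 0.74 (SE), adjusted p = 0.0079), and its relative eps8a 75.7 and 91.8 CPM against 14 and 14.5 CPM (log2 difference 2.66 ± 0.39 (SE), adjusted p = 0.0244). The others called were myo3a (4.68), a MYO7A copy (ENSDARG00000099871; 3.45), the membrane linker copy EZR (ENSDARG00000025091; 3.40) and a BAIAP2L1 copy (ENSDARG00000031119; 6.78), each value a log2 difference. Members of the tip-link complex that hair cells use, cdh23 and the PCDH15 copies, were not called.

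Many cilia genes were higher in the members. Of 78 tested (80 found), 34 were called higher and none lower by edgeR (3 at an unadjusted p under 0.05, and 2 with DESeq2), with a median log2 difference of 3.06 against -0.24 over all genes. The 6 with the largest difference were cfap53, rsph9, spag6, zmynd10, ak7b and foxj1a, whose products build or assemble the axoneme of motile cilia or, for foxj1a, switch on its genes. The radial spoke gene rsph9 had 107 and 153 CPM in the members and 0.148 and 1.45 CPM in the others (log2 difference 8.05 ± 0.86 (SE), adjusted p = 0.0128). The central apparatus gene spag6 had 167 and 189.8 CPM against 0.161 and 3.95 CPM (log2 difference 7.66 ± 1.26 (SE), adjusted p = 0.034). It was carried by a part of the members, with medians of 0 and 7.65 CPM and 20 of 73 and 39 of 84 at 100 CPM or more. The gene cfap53 had 48.1 and 67.9 CPM against 0 and 0.555 CPM (log2 difference 8.76 ± 1.51 (SE), adjusted p = 0.0387). The dynein assembly factor zmynd10 (7.07, adjusted p = 0.0319) and the adenylate kinase ak7b (6.85, 0.0336) were higher as well. The outer arm dynein dnah5 had 154 and 212 CPM against 8.66 and 5.23 CPM (log2 difference 4.86 ± 0.49 (SE), adjusted p = 0.0106), and the intraflagellar transport gene ift88, which every ciliated cell uses, 64.8 and 138 CPM against 21 and 27.6 CPM (log2 difference 2.09 ± 0.39 (SE), adjusted p = 0.0479).

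Regulators of ciliogenesis were higher as well. The master regulator of motile cilia foxj1a had 149 and 272 CPM in the members and 0.511 and 15.5 CPM in the others (log2 difference 6.18 ± 1.15 (SE), adjusted p = 0.0475), and its paralog foxj1b 175 and 274 CPM against 6.55 and 15.3 CPM (log2 difference 4.56 ± 0.37 (SE), adjusted p = 0.00743). The winged-helix factors rfx2 (190.1 and 188 CPM against 18.4 and 27.5 CPM) and rfx4 (424 and 551 CPM against 17.3 and 11.9 CPM) were higher with adjusted p = 0.0133 and 0.00743. Single cells differed, with medians of 0 and 170 CPM for foxj1a and 5.37 and 153 CPM for foxj1b on plates 1 and 2. At least 50 CPM of foxj1a or foxj1b was held by 115 of 157 members. Spearman's rho between the paralogs was -0.01 over the 73 cells of plate 1 and 0.06 over the 84 of plate 2. The number of cilia genes called higher was 22 with RLE factors, 19 without the plate block and 19 with members from 100 CPM of pkd2l1, and 57 with DESeq2. With RLE factors and without the block, the calls of cfap53, spag6, ak7b, foxj1a and ift88 were lost, with RLE factors also that of zmynd10, and without the 2 members that held slc18a3a those of foxj1a and ift88. Of 11 ependymal and progenitor genes tested, 2 were called higher, 1 lower and 8 not called, with a median of -1.18. Over all genes tested, 2.69% were called higher and 2.35% lower. The 2 higher were both foxj1 genes, which are also counted among the cilia genes. The 1 lower was her4.2, a Notch target gene that marks progenitors (0.164 and 2.68 CPM against 8.91 and 80.7 CPM; log2 difference -5.15 ± 0.67 (SE), adjusted p = 0.0187). Its call was lost without the plate block, with a limit of 2000 CPM and with cells of at least 3000 genes.

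Most receptor genes that were called for fast transmitters were lower than in the other cells, of which 291 of 465 were cholinergic. Of 33 GABA and glycine receptor genes tested, 5 were called lower and none higher by edgeR (2 at an unadjusted p under 0.05, and 2 with DESeq2), with a median of -1.22. The glycine receptor subunit glra1 had 14.2 and 11.3 CPM in the members and 485 and 301 CPM in the others (log2 difference -4.80 ± 0.35 (SE), adjusted p = 0.007), and the beta subunit copy GLRB (ENSDARG00000052782) 1.21 and 3.74 CPM against 319.7 and 162 CPM (log2 difference -6.57 ± 0.83 (SE), adjusted p = 0.0175). Of the GABA receptor subunits, gabra5 (-4.22) and a GABRB2 copy (ENSDARG00000079586; -2.81) were lower on the log2 scale, the second a call lost without the plate block. The subunit gene gabra4 went the other way in value, at 127 and 143 CPM against 0 and 1.44 CPM, without passing the threshold (log2 difference 8.87 ± 1.70 (SE), adjusted p = 0.0514).

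Of 55 glutamate and acetylcholine receptor genes tested (58 found), 10 were called lower and 2 higher, with a median of -2.51. Over all genes tested, 2.35% were called lower and 2.69% higher, so the 2 higher calls are near the background. The obligatory NMDA receptor subunit had its copy GRIN1 ENSDARG00000025728 at 3.83 and 1.12 CPM in the members and 696 and 252 CPM in the others (log2 difference -7.55 ± 0.38 (SE), adjusted p = 0.00418), and its copy ENSDARG00000027828 at 1.96 and 12.3 CPM against 459 and 324 CPM (log2 difference -6.13 ± 0.95 (SE), adjusted p = 0.0288), the second a call lost with RLE factors. The nicotinic subunit copy CHRNA2 (ENSDARG00000057025), with 2 counts in the members, was 3947-fold lower (95% counting interval 1092 to 32592), and chrna4b, with 2 counts, was 1282-fold lower (95% counting interval 355 to 10589). The 2 higher genes were a muscarinic receptor copy, CHRM5 (ENSDARG00000099928; 55.3 and 67.0 CPM against 0.70 and 1.51 CPM; log2 difference 5.99 ± 0.56 (SE), adjusted p = 0.00908), and the NMDA receptor subunit grin2ab (101 and 38.6 CPM against 1.88 and 3.22 CPM; log2 difference 4.77 ± 0.71 (SE), adjusted p = 0.0262).

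Several general neuronal genes were lower in the members than in the other cells, of which 291 of 465 were cholinergic. Of 14 tested, 7 were called lower and none higher by edgeR (0 at an unadjusted p under 0.05, and 0 with DESeq2), with a median of -2.35. In the fit over 4 groups described below, 7 were called lower than in cholinergic cells and 3 lower than in serotonergic cells, and none higher than in either. The growth cone gene gap43 had 21.8 and 73.3 CPM in the members and 204 and 658 CPM in the others (log2 difference -3.08 ± 0.30 (SE), adjusted p = 0.0103), and the neurofilament gene neflb 42.0 and 65.0 CPM against 468 and 700.0 CPM (log2 difference -3.34 ± 0.30 (SE), adjusted p = 0.00868). The release genes SNAP25 (ENSDARG00000058117; -3.90) and syt1a (-2.44), the tubulin-binding STMN2 copies ENSDARG00000033234 (-2.11) and ENSDARG00000070537 (-2.55) and the splicing factor RBFOX3 (ENSDARG00000010083; -4.49) were lower on the log2 scale. The neuronal RNA-binding gene elavl3 was not called, and its median per member was 708 and 652 CPM. Of 47 hox genes tested, 3 were called lower and 44 were not called, where 2.35% of all genes tested were called lower. So few calls are no result about the hox genes as a list. The 3 were hoxb8a (1.41 and 3.29 CPM against 59.0 and 234 CPM; log2 difference -5.66 ± 0.44 (SE), adjusted p = 0.00733), HOXB13 (ENSDARG00000056015; -2.65) and a HOXC13 copy (ENSDARG00000113877; -3.16). Without the plate block the calls of gap43, RBFOX3, HOXB13 and the HOXC13 copy were lost, and those of RBFOX3 and the HOXC13 copy also with RLE factors and with a limit of 2000 CPM. The calls of HOXB13 and the HOXC13 copy were lost with cells of at least 3000 genes. That of RBFOX3 was lost without the 2 members that held slc18a3a.

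Some of the genes with the largest differences lay outside the lists. By rank, the 12 called higher with at least 100 CPM in both pkd2l1+ sums were led by urp2, msmp2, urp1, prlhr2a, tal1 and pkd1l2a. The gene msmp2, which encodes a small secreted microseminoprotein, had 317 and 365 CPM in the members and 0.0135 and 0.129 CPM in the others (log2 difference 12.37 ± 0.79 (SE), adjusted p = 0.00541). The receptor gene prlhr2a, of the prolactin-releasing hormone receptor family, had 364 and 403 CPM against 0.215 and 0.0724 CPM (log2 difference 11.62 ± 0.69 (SE), adjusted p = 0.00489), with 38 of 73 and 54 of 84 members at 100 CPM or more. The estrogen receptor copy ESR2 (ENSDARG00000034181) had 119 and 189 CPM against 0.296 and 0.249 CPM (log2 difference 9.23 ± 0.54 (SE), adjusted p = 0.00489), again in a part of the cells (15 and 38 at 100 CPM or more). The calcium sensor copy HPCAL1 (ENSDARG00000022763) had 153 and 134 CPM against 0.188 and 0.459 CPM (log2 difference 8.97 ± 0.61 (SE), adjusted p = 0.00558). The rest were si:ch211-157b11.8 (log2 difference 9.62), the metalloprotease gene kel (9.58), and copies of the glutathione transferase GSTM3 (ENSDARG00000088116; 8.92) and the myosin kinase MYLK (ENSDARG00000034801; 8.85).

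Among genes called lower with at least 100 CPM in the other cells of both plates, the 8 with the largest differences were each under 3 CPM in the members on both plates. Besides fev, adcyap1b and tph2, they were a neurotensin receptor copy NTSR1 (ENSDARG00000077577), the follistatin copy FST (ENSDARG00000052846), the orphan receptor ESRRG (ENSDARG00000004861), the neurogenic factor NEUROD1 (ENSDARG00000019566) and si:dkey-35i13.1. With 2 counts in the members, NTSR1 was 3692-fold lower (95% counting interval 1022 to 30491), and it was carried by serotonergic cells (681 and 907 CPM). FST had 0.196 and 0.106 CPM in the members and 503 and 344 CPM in cholinergic cells, ESRRG 0.360 and 0.186 and 844 and 434 CPM, and NEUROD1 0.0655 and 0.558 and 196 and 827 CPM. All 3 were therefore near 0 in the members on both plates. The log2 difference of si:dkey-35i13.1 from the other cells was -9.77 (adjusted p = 0.00996).

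The members were next set against the 2 named groups in a fit over 4 groups. Against cholinergic cells, 368 of 20453 genes (1.8%) were called higher and 453 (2.21%) lower, and against serotonergic cells 217 (1.06%) and 245 (1.2%). These comparisons share the pkd2l1+ sums, so their values are given side by side. Of the cilia genes, 11 were called higher and 1 lower than in cholinergic cells, and 7 higher and 0 lower than in serotonergic cells. The 1 lower call is near the share over all genes. Higher in both were, for instance, spag6 (cholinergic log2 difference 10.93, adjusted p = 0.00813; serotonergic log2 difference 13.25, adjusted p = 0.0111) and dnah5 (cholinergic log2 difference 4.52, adjusted p = 0.025; serotonergic log2 difference 6.86, adjusted p = 0.012). Of the GABA genes, 5 were called higher in each comparison, with gad2 differing by 6.75 from cholinergic and by 3.65 from serotonergic cells on the log2 scale. Of the microvillar genes, 8 were called higher than in cholinergic cells and 5 than in serotonergic cells. Of the further genes of CSF-cNs, 7 were called higher than in cholinergic cells but 2 higher than in serotonergic cells.

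The peptide processing genes gave different counts in the 2 comparisons, a difference that was not tested. Of 23 genes, 8 were called higher and 4 lower against cholinergic cells, and 1 higher and 3 lower against serotonergic cells. The granule gene scg3 was at 3483 and 3892 CPM in serotonergic cells, and the members did not differ from it past the threshold (log2 difference -0.40, adjusted p = 0.525), but were higher than cholinergic cells (log2 difference 3.31, adjusted p = 0.00193). The convertase gene pcsk1 was at 1776 and 1152 CPM in serotonergic cells and lower in the members (log2 difference -5.63, adjusted p = 0.00503). Of the glutamate and acetylcholine receptor genes, 1 was called higher and 11 lower than in cholinergic cells. Over all genes, 1.8% were called higher and 2.21% lower than in cholinergic cells, so the 1 higher call is near the background. Against serotonergic cells, 3 of them were called higher and 4 lower. Over all genes, 1.06% were called higher and 1.2% lower than in serotonergic cells. Of the GABA and glycine receptor genes, 1 was higher and 5 lower than in cholinergic cells, and 0 higher and 3 lower than in serotonergic cells. The 1 higher receptor call is near the share over all genes. The NMDA receptor copy GRIN1 ENSDARG00000025728 was lower than in either group (cholinergic log2 difference -7.71, adjusted p = 0.000727; serotonergic log2 difference -7.42, adjusted p = 0.000652), as was glra1 (cholinergic log2 difference -5.21, adjusted p = 0.000906; serotonergic log2 difference -3.03, adjusted p = 0.00514).

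The members also varied among themselves. Levels of urp1 and urp2 went together across cells, with Spearman's rho 0.65 over the 73 cells of plate 1 and 0.63 over the 84 of plate 2. These cells share their plate, and the peptide levels also went with the number of genes detected (urp2 0.40 and 0.28). For urp2 and tal2 the values were -0.13 and -0.27.

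**Figure D4:**
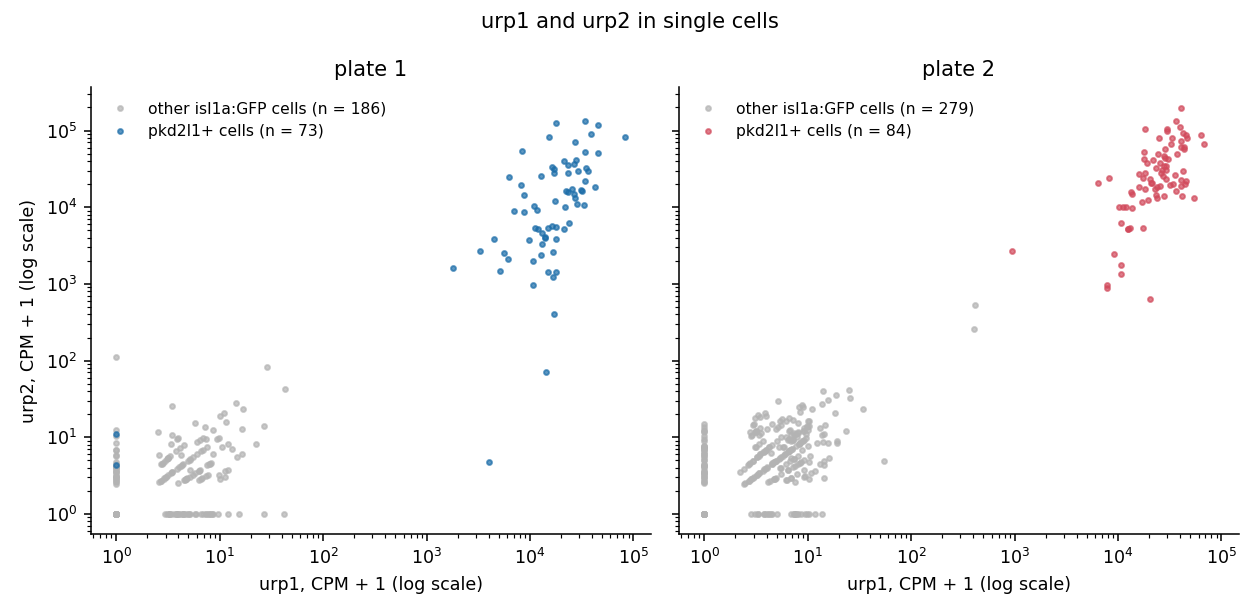
Level of urp2 against urp1 in single isl1a:GFP cells of each plate, CPM + 1 on log axes, with pkd2l1+ cells and other cells as separate points. All but 2 of the 157 pkd2l1+ cells have at least 500 CPM of urp1, and no other cell does.

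Genes were also ranked by how far their variation across members exceeded that of genes at a like mean, over 1336 genes with a mean of at least 100 CPM on both plates. The 10 highest were stm, urp2, hspa1b, cited4b, SOCS3 (ENSDARG00000025428), arl5c, CEBPB (ENSDARG00000042725), mbpa, tpm3 and HSPA8 (ENSDARG00000037403). The starmaker gene stm, known from otolith formation, reached 7037 and 18405 CPM in single cells but 100 CPM or more in 4 cells of plate 1 and 1 of plate 2. Its highest cell of plate 1 was the member nearest the threshold, which carried gfap and no urp1. The heat shock gene hspa1b reached 100 CPM in 12 of 73 and 36 of 84 members, with a highest level of 10413 CPM. The cytokine feedback gene SOCS3 reached it in 33 and 43, and the coactivator gene cited4b in 41 and 43. The tropomyosin gene tpm3 was present in most cells, with medians of 1614 and 2067 CPM, and was also higher in the members than in the others (log2 difference 4.35 ± 0.35 (SE), adjusted p = 0.00743). Of the other genes in this ranking, hspa1b (4.84, adjusted p = 0.00558), cited4b (2.30, 0.0163), arl5c (2.19, 0.0304) and SOCS3 (2.99, 0.0181) were called higher by log2 difference, SOCS3 not without the plate block.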

How the data were processed

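Single GFP+ cells of Tg(isl1a:GFP) spinal cords were measured by Smart-seq2. The values deposited by the authors are raw counts of uniquely mapped reads on genes, 1 column a well, from STAR 2.5.3a alignments to GRCz11. The counting program is not given in the sources used here. Of 32519 genes, 29200 had a symbol in a later RefSeq name table, used for names only. Symbols in capitals have no zebrafish form there, and copies that share one are named by identifier. slc18a3a was taken as SLC18A3 ENSDARG00000006356, and chata as the only gene listed as CHAT. Reads of near-identical copies may be split between them. Spike-in sequences held 3.17% of all counts of the series and the GFP reporter 0.517%, and both were left out of library sizes and tests.

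Wells were kept by the limits given above, without a doublet program, since single cells were sorted. CPM were computed over gene counts. Counts of the members and of each other group were summed per plate, filtered with filterByExpr, scaled by TMM and tested with edgeR 4.0.16 in R 4.3.3, with plate as a block. Both groups of a plate came from 1 pool, and their deviations from the group means correlated with r = 0.161 over 20316 genes. The main test had 1 residual degree of freedom. Smart-seq2 has no molecular identifiers, so intervals (exact Clopper-Pearson) and floors of 3 counts cover counting error only. The members and lists were chosen with earlier results of these data known. Some list members are counted but not reported by name here. The alternatives were DESeq2 1.42.0, RLE factors, no filter, no block, thinning to 100000 counts, members from 100 or 2000 CPM, at least 3000 genes, a mitochondrial limit of 30%, and leaving out 2 members with slc18a3a.

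Genes were named by rule: markers, defining genes and called genes of a list (the 6 with the largest absolute difference where over 8 were called), the 12 highest and 8 lowest called genes with the same sign on both plates and at least 100 CPM, and the 10 most variable genes. Outside this rule, nppc, nkx2.2a, grin2ab, gabra4, foxa2, dnah5, ift88, rfx2, rfx4 and the genes of the closing section were chosen after their values were seen.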

Additional observations from a re-analysis of the deposited data

How the results depend on the processing

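No direction was reversed under any alternative for the genes named as called, and 54 of the 100 genes named as called kept their call in every alternative with a value. Against the other cells, 547 genes were called higher and 478 lower. These became 1570 and 1978 with DESeq2, 866 and 811 with cells thinned to 100000 counts, 824 and 892 without the filter on low counts, and 374 and 219 with members from 100 CPM of pkd2l1. Against cholinergic cells DESeq2 called 1451 higher and 1415 lower. Against serotonergic cells DESeq2 called 1793 and 1111, and 470 and 376 were called without the filter. The cause of these shifts was not tested. Without the plate block, 420 and 388 genes were called against the other cells, 286 and 365 against cholinergic and 204 and 192 against serotonergic cells, so that dropping the replicate block moved no count by over 1.5 times. Of the 100 genes, 16 lost their call without the block, 16 under RLE factors, 37 with members from 100 CPM, 4 each from 2000 CPM and with at least 3000 genes, and 3 without the members that held slc18a3a. No cell passed 30% mitochondrial counts, so that limit changed nothing. The number of members was 163, 155 and 127 from 100 CPM, from 2000 CPM and with at least 3000 genes. A plate alone leaves no residual degree of freedom, so counts of called genes have no value without 1 plate. Each gene named as called kept its direction on either plate. This is no separate check, as the calls were made from the same 2 plates.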

Other observations

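The next genes, of the heat shock and immediate-early families, were chosen after their values were seen and do not stand for those families. The heat shock cognate copy HSPA8 (ENSDARG00000037403), for one, had 111 and 263 CPM in the pkd2l1+ sums and 112 and 87.7 CPM in all other cells of plates 1 and 2. HSP90AA1 (ENSDARG00000024746) had 11393 and 11180.1 CPM in the pkd2l1+ sums of plates 1 and 2, 2333 and 3041 CPM in all other cells and 7617 and 8919.9 CPM in serotonergic cells. The heat shock gene hsp70l had 8384 and 10019.6, 2026 and 3495 and 6403 and 9076 CPM in the same order, and the co-chaperone BAG3 (ENSDARG00000039486) 4187 and 4524, 552 and 435 and 2721 and 2202 CPM. Of the activity-induced transcription factors, FOS (ENSDARG00000031683) had 6900.2 and 7881, 2418 and 2204 and 8928 and 6069 CPM and egr1 2059 and 783, 457 and 174.2 and 1572 and 551 CPM.

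Among the 465 other isl1a:GFP cells, 4 cells of plate 2 had at least 500 CPM of tal2 without passing the pkd2l1 threshold. Of these, 2 remaining cells held 1879 and 1501 CPM of tal2, 2079 and 9820 CPM of pkd1l2a, 5357 and 5744 CPM of gad2 and 1666 and 1281 CPM of myo3b, but 307 and 146 CPM of pkd2l1 and at most 9.43 CPM of urp1 or urp2. The 2 others were serotonergic. One held 2020 CPM of pkd1l2a, 4821 CPM of gad2 and 988 CPM of tph2, and the other had 16892 CPM of tph2 and 0 CPM of pkd1l2a and gad2.

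Wells outside the quality limits were not used. On isl1a:GFP plates 1 and 2, 33 and 2 of them passed 500 CPM of pkd2l1, with a median of 1 pkd2l1 count each. More than 3 counts were found in 2 wells outside the limits on isl1a:GFP plate 1, both with over 9000 genes and with urp1 and urp2 above 500 CPM. On chx10:GFP plate 2, 2 wells outside the limits held more than 3 counts, at most 12, and 0 wells there reached 500 CPM of pkd2l1.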
